A study of Mus musculus with 30 samples.

Results

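Of the 14 aortae of the series, 4 carried high levels of adipocyte transcripts and are described here against the other 10. The 4 fat-rich aortae were chosen from the data themselves, by the mean log2 CPM (counts per 1000000 counts, 0.5 CPM added) of Adipoq, Plin1, Fabp4, Ucp1 and Cidea, so every difference between fat-rich and fat-poor aortae is given as a description, without a test. The series holds 30 RNA-seq libraries of male C57BL/6 mice, 14 of aorta and 16 of kidney, and asks how the epidermal growth factor receptor (EGFR) of vascular smooth muscle affects the response to a high-fat diet (HFD) in comparison with a standard-fat diet (SFD). In the knockout mice (KO), Egfr flanked by loxP sites was deleted by a tamoxifen-inducible Cre recombinase driven by the Smmhc (Myh11) promoter, so that only smooth muscle cells were targeted and other cells of the aorta kept the gene. Wild-type mice (WT) carried the same Cre recombinase without loxP sites. All mice of both genotypes received tamoxifen, 1 mg per day for 5 days, and the diets began 7 days later at 6 weeks of age and lasted 18 weeks. Each library came from 1 mouse, and the aortae had been freed of adjacent fat and connective tissue before RNA was extracted.

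The fat-rich aortae were WT-SFD-1309, WT-SFD-1310, KO-SFD-1319 and KO-SFD-1452 (genotype, diet and mouse number), and values of these 4 are always given in that order. The fat-poor aortae were WT-SFD-1445, KO-SFD-1507, 4 WT-HFD mice and 4 KO-HFD mice, and their values are given as lowest, median and highest of 10. All 4 fat-rich aortae therefore came from mice on SFD, and none from a mouse on HFD. The mouse numbers of 3 of them (WT-SFD-1309, WT-SFD-1310 and KO-SFD-1319) were lower than those of all other aortae, and the labels do not say what the numbers stand for. Fat class and whatever the numbers mark cannot be told apart for these 3. Total counts ran from 6403699 to 10466922 in the fat-rich and from 6782444 to 13052870 in the fat-poor aortae. The marker mean was 8.55, 8.06, 7.76 and 6.63 in the fat-rich aortae and 2.03, 3.54 and 4.48 in the fat-poor aortae. KO-SFD-1452 was the lowest inside the class and WT-HFD-1447, with 4.48, the highest outside it, and the gap between them was wider than the spread of the 4 fat-rich values. Smooth muscle transcripts were abundant in all 14 libraries, with Myh11, the smooth muscle myosin heavy chain, at 4037 CPM or more in each. All CPM values are scaled by the trimmed mean of M-values (TMM).

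Several libraries stood apart before any comparison was made. Counts of the near-identical U1 small nuclear RNA genes, which were even in the other 11 aortae, were uneven in WT-HFD-1443, KO-SFD-1507 and KO-HFD-1454, with a highest copy 24.4, 15.9 and 14.2 times the lowest. Among the fat-rich aortae, WT-SFD-1309, WT-SFD-1310 and KO-SFD-1319 each held transcripts of another tissue, described further below, and KO-SFD-1452 held less fat RNA than the other 3. Results are given with and without these libraries where leaving one out moved a count by more than 1.5 times.

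Fat lies around the adventitia of large arteries, and the perivascular fat of the mouse thoracic aorta resembles brown fat. Brown adipocytes are rich in mitochondria and release heat by way of uncoupling protein 1 (UCP1), which lets protons pass the inner mitochondrial membrane without ATP synthesis. They take up glucose and fatty acids, make fatty acids from acetyl-CoA, and burn them by mitochondrial beta-oxidation.

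The markers that defined the classes separated the aortae completely. Adipoq (chr16:23146536-23158028, plus strand, GRCm38), which encodes the adipocyte hormone adiponectin, was at 196, 148, 112 and 47.8 CPM in the fat-rich aortae and at 1.36, 5.33 and 14.7 CPM in the fat-poor aortae. Plin1, a coat protein of lipid droplets, was at 299, 223, 142 and 52.3 CPM against 2.17, 7.32 and 24.2 CPM. Fabp4, a fatty acid-binding protein of adipocytes and capillary endothelium, was at 1297, 1094, 944 and 298 CPM against 25.7, 43.1 and 67.8 CPM. The lowest fat-rich aorta was KO-SFD-1452 for each of these, and it still exceeded the highest fat-poor aorta. Ucp1 (chr8:83290352-83298452, plus strand, GRCm38) was at 583, 256, 196 and 73.2 CPM against 0.543, 9.48 and 27.3 CPM. Cidea, a lipid droplet protein of brown fat, was at 320, 209, 213 and 95.9 CPM against 5.16, 9.65 and 18.9 CPM. By the edgeR fit, the log2 fold change of fat-rich over fat-poor aortae was 4.23 ± 0.34 (SE) for Adipoq, 4.32 ± 0.27 for Fabp4 and 4.62 ± 0.57 for Ucp1. In bulk tissue, more adipocytes in a piece of aorta and more RNA of these genes per adipocyte cannot be told apart.

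**Figure D1:**
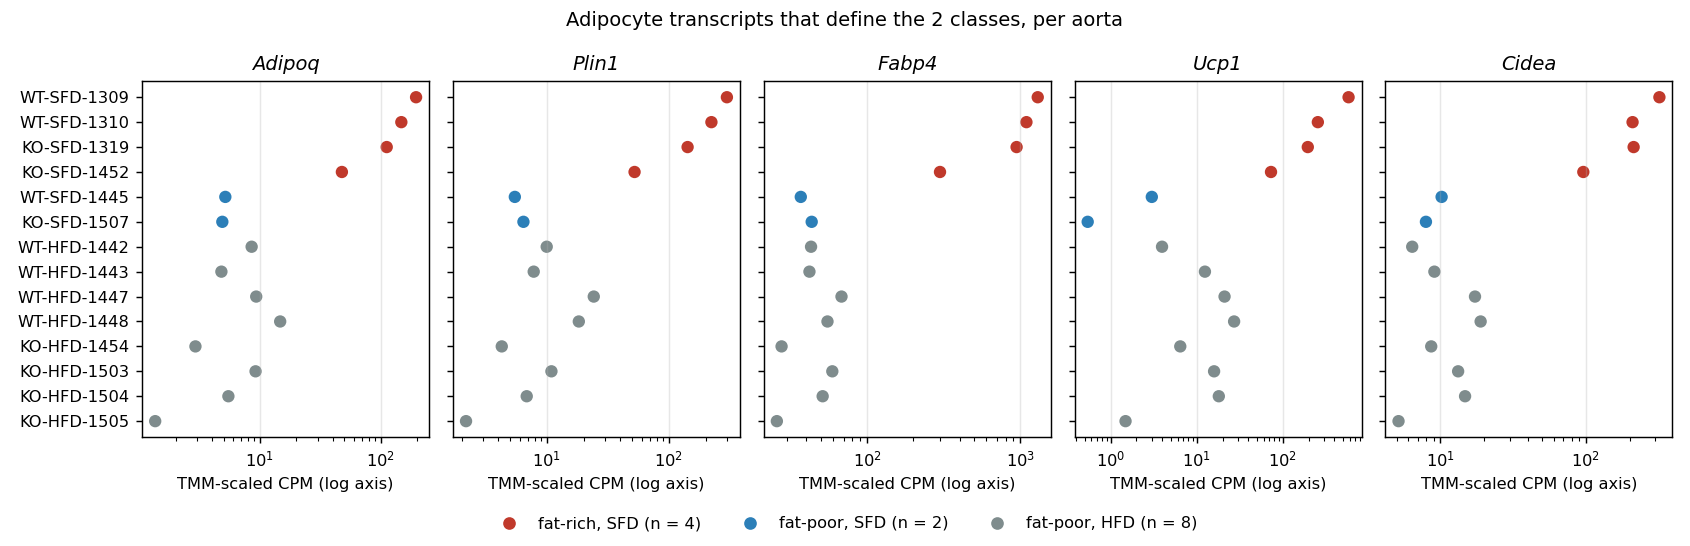
TMM-scaled CPM (log axis) of Adipoq, Plin1, Fabp4, Ucp1 and Cidea in each of the 14 aortae; each point is 1 library, coloured by fat class and diet. The 4 fat-rich aortae lie above all 10 fat-poor aortae in every panel, with KO-SFD-1452 the lowest of the 4.

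Over all genes, 520 of 14405 tested (3.61%) were higher in each of the 4 fat-rich than in any of the 10 fat-poor aortae and at least 2-fold higher in the fit, and 7 (0.0486%) were lower by the same rule. Without the 2-fold condition these were 795 (5.52%) and 233 (1.62%). Among the 520 higher genes, 473 were protein-coding and 42 were pseudogenes; 223 were at least 4-fold and 94 at least 10-fold higher. Together the 520 genes made up 180814, 139763, 138040 and 68328 CPM of the fat-rich libraries, and between 28820 and 39391 CPM of the fat-poor libraries. In every library 10 mitochondrial pseudogenes, described below, made up the larger share of this sum. WT-SFD-1309 had the highest of the 4 values for 445 of them and KO-SFD-1452 the lowest for 482. The median log2 distance of these genes from the fat-poor median was 2.201, 1.76, 1.74 and 0.95 in the 4 aortae. Without KO-SFD-1452, 854 genes were higher and 84 lower, in place of 520 and 7. The lower count was 18, 20 and 26 without WT-SFD-1309, WT-SFD-1310 and KO-SFD-1319. With 1 fat-rich library fewer the rule of no overlap is easier to meet, so these rises say little about the 7 genes. Within the 6 SFD aortae, where diet was the same, 1115 of 16523 genes (6.75%) were higher and 244 (1.48%) lower in all 4 fat-rich than in both fat-poor aortae by at least 2-fold, and 499 of the 520 genes were among the 1115. Both fat-poor SFD aortae are among the 10, so for the 520 the lack of overlap was fixed in advance. The 499 is therefore no independent support. Without the 2-fold condition these were 2498 (15.1%) and 1955 (11.8%). With the 2-fold condition and without KO-SFD-1452, the lower count within SFD was 417 in place of 244. That check has only 2 fat-poor libraries, and without KO-SFD-1507 its total was 2524 in place of 1359.

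Brown fat genes were largely higher in the fat-rich aortae. Of 28 brown fat genes, 23 passed the filter on low counts and 17 were higher in the fat-rich aortae, with a median log2 fold change of 2.83 over the 23, beside 3.61% of all genes tested and a median of −0.01 over them. The list contains the markers Ucp1 and Cidea. Cox8b, a subunit of cytochrome c oxidase found in brown fat and muscle, was at 177, 127, 117 and 66.0 CPM against 1.63, 4.88 and 12.9 CPM. Adrb3, the beta-3 adrenoceptor through which noradrenaline acts on adipocytes, was at 118, 82.6, 44.2 and 12.7 CPM against 0.905, 2.15 and 7.25 CPM. Both genes were thus lowest in KO-SFD-1452 and did not overlap between classes. Letmd1, a mitochondrial protein of brown fat, differed less, with 117, 74.8, 80.0 and 33.97 CPM against 21.1, 26.0 and 29.9 CPM. Prdm16, a transcriptional regulator of brown fat that is also expressed in arterial cells, did not share the pattern and was at 118, 130, 109 and 150 CPM against 127, 174 and 203 CPM, with overlapping classes.

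Most genes of adipocytes in general were higher too, though not all. Of 30 core adipocyte and lipid droplet genes, 29 passed the filter and 22 were higher, beside 3.61% of all genes. The median log2 fold change over the 29 was 3.41, and the markers Adipoq, Plin1 and Fabp4 were among the 22. Ptrf, a caveolar coat protein that many cells of the vessel wall also express, was not called (log2 fold change −0.24). Lpl, the lipoprotein lipase that frees fatty acids from circulating triglyceride, was at 1520.5, 1466, 1044 and 273 CPM against 42.5, 71.9 and 119 CPM. Gpd1, which makes the glycerol phosphate backbone of triglyceride, was at 1461, 840, 856 and 257 CPM against 10.5, 23.7 and 78.6 CPM. Acsl1, which activates long-chain fatty acids with coenzyme A, was at 992, 819, 697 and 186 CPM against 88.8, 109 and 135 CPM. Each of the 3 was separated between classes, and Acsl1, which was measurable at 88.8 CPM or more in every fat-poor aorta, had the smallest log2 fold change of them, 2.59.

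Genes more typical of white fat and secreted adipokines gave a mixed picture. Of 15 that passed the filter, 3 were higher, beside 3.61% of all genes, and the median log2 fold change was 0.57. Cfd, the serum protease adipsin, was at 641, 329, 308 and 135 CPM against 3.80, 11.5 and 25.4 CPM. Retn, the adipokine resistin, was at 68.7, 62.0, 41.9 and 12.3 CPM against 0.136, 1.62 and 3.08 CPM. The ratio of Ucp1 to Adipoq CPM lay between 1.53 and 2.97 in the fat-rich aortae and between 0.111 and 3.30 in the fat-poor aortae, so the classes overlapped in this ratio although both of its genes were separated. Leptin (Lep) had a log2 fold change of 2.18, but its values overlapped between the classes.

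Apart from the markers themselves, fatty acid synthesis had the largest median difference of the lists over all 14 aortae. Within SFD core adipocyte genes (3.43) lay level with it (3.41), and the sympathetic neuron and adrenal list (3.59) lay above both. That list rested on few counts, so its median is unsure. It summed to 115, 15.0, 19.3 and 12.8 CPM in the fat-rich aortae, against 10.5 and 9.50 CPM in WT-SFD-1445 and KO-SFD-1507. Of 12 fatty acid synthesis genes, 10 passed the filter and had a median log2 fold change of 3.55. All 10 were higher in each fat-rich aorta without overlap, beside 5.52% of all genes. At least 2-fold higher were 9 of them, beside 3.61% of all genes. Fasn (chr11:120805846-120824547, minus strand, GRCm38), the fatty acid synthase, was at 10350, 7069.7, 5490.1 and 1579 CPM against 96.0, 186 and 283 CPM, a log2 fold change of 5.09 ± 0.36. Scd1, the stearoyl-CoA desaturase that introduces the double bond of oleate, was at 16014, 12102, 10655 and 2654 CPM against 155, 362 and 590.2 CPM (log2 fold change 4.99 ± 0.38). These are differences of 34.4-fold and 32.04-fold between class means, and in KO-SFD-1452 both genes were well below their levels in the other 3 fat-rich aortae. Scd1 has close paralogues, and reads shared with Scd3 may have been split or dropped by the counting.

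Other enzymes of the pathway were highest in WT-SFD-1309 and lowest in KO-SFD-1452 in the same way. Acly, which makes cytosolic acetyl-CoA from citrate, was at 1171, 944, 615 and 255 CPM against 55.3, 63.6 and 89.0 CPM. Acaca, the acetyl-CoA carboxylase of the committed step, was at 1005, 760, 548 and 202 CPM against 38.5, 51.7 and 64.4 CPM. Thrsp, a lipogenic protein first found as a thyroid hormone-responsive transcript, was at 482, 472, 266 and 149 CPM against 2.85, 8.12 and 17.4 CPM. Srebf1, a transcription factor of lipogenic genes, was separated between classes but was less than 2-fold higher, with a log2 fold change of 0.92. The 10 genes summed to 30711, 22532, 18567 and 5201 CPM in the fat-rich aortae, whereas the fat-poor aortae ranged from 472.8 to 1228 CPM.

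Promoter sequence is shown for 4 of these genes to let their starts be compared, namely 2 of the markers and 2 genes of fatty acid synthesis. Each window runs from 250 bases before to 50 bases after the RefSeq start on GRCm38.p6, written 5′ to 3′ on the strand of the gene. Capitals mark CCAAT, the box bound by NF-Y and C/EBP-type factors, on either strand (ATTGG on the other) in Adipoq, Fasn and Thrsp, and AGGTCA, the hexamer of nuclear receptor sites, in Ucp1. The windows are chr8:83290098-83290397 (plus) for Ucp1, chr16:23146286-23146585 (plus) for Adipoq, chr11:120824498-120824797 (minus) for Fasn and chr7:97417501-97417800 (minus) for Thrsp.
Ucp1: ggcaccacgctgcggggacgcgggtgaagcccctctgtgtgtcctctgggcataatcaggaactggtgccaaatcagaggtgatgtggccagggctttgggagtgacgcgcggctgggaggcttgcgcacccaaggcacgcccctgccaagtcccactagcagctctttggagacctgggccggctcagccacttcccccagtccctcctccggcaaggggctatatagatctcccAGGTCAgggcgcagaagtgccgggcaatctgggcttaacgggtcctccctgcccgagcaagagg
Adipoq: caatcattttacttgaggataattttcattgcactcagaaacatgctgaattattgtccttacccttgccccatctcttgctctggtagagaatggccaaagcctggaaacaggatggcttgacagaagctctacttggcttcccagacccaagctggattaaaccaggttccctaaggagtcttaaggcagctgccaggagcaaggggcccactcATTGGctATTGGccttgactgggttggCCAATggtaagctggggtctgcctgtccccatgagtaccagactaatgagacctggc
Fasn: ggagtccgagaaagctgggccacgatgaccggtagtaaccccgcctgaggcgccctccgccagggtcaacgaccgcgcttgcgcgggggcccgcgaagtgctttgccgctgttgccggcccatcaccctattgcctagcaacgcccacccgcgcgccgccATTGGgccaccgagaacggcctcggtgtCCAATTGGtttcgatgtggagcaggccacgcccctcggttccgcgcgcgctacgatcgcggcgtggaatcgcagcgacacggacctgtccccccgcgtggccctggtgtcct
Thrsp: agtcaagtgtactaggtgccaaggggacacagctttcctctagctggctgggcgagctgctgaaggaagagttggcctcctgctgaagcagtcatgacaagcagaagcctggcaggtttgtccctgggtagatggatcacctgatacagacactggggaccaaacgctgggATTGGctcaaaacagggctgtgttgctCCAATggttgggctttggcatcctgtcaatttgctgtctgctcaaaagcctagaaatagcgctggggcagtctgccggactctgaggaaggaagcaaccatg
In the Fasn window 2 of the 3 matches, on opposite strands, overlap within CCAATTGG, and the Ucp1 window holds a single AGGTCA 14 bases before the start. CCAAT or its complement was found in 46.1% of the 336 promoters matched to the 520 higher genes (155), in 9 of 11 matched fatty acid synthesis genes, and in 41.1% of all 27025 promoters of the table. AGGTCA or its complement was found in 22.3% of the 336 (75), in 3 of the 11 and in 18.1% of all promoters. These matches describe the letters of the windows only.

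A rule that took the largest fold changes without regard to lists named genes of several functions, some of them also on the lists above. Elovl6, which lengthens palmitate, was at 406, 368, 270.3 and 69.7 CPM against 2.60, 7.37 and 12.0 CPM. Elovl3, a fatty acid elongase of brown fat, was at 31.97, 18.3, 5.69 and 3.34 CPM against 0, 0.163 and 0.725 CPM. Slc2a5, a fructose transporter, was at 13.04, 6.26, 7.86 and 2.37 CPM against 0, 0 and 0.282 CPM. Some fat-poor libraries were at 0 for Elovl3 and Slc2a5, and also for Orm1, Slc27a2, Klb and Aspg, given next. The fitted folds of these genes therefore depend on the prior count. Also in the group were Orm1, an acute-phase plasma protein (log2 fold change 5.55), Slc27a2, an acyl-CoA synthetase and fatty acid transporter (5.51), Gys2, a glycogen synthase (5.37), and Klb, a co-receptor of fibroblast growth factor 21 (4.97). Aspg, an asparaginase, had 5.24. Cyp2e1, a cytochrome P450 enzyme named for the diet comparison below, was at 264, 216, 216 and 44.5 CPM against 0.815, 6.63 and 12.4 CPM.

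Genes of fatty acid breakdown were higher as well, by a smaller margin. Of 20 beta-oxidation genes, 18 passed the filter and had a median log2 fold change of 1.95. Of these, 15 were higher without overlap, beside 5.52% of all genes, and 14 were called higher, beside 3.61%. Hadha, the alpha subunit of the mitochondrial trifunctional protein, was at 389, 271, 222 and 111 CPM against 56.5, 65.5 and 77.2 CPM. Acadl, the long-chain acyl-CoA dehydrogenase, was at 288, 218, 239.7 and 98.8 CPM against 32.3, 35.1 and 43.5 CPM. These enzymes were already expressed in every fat-poor aorta, in contrast to Elovl3 and Slc2a5. For the tricarboxylic acid cycle, 13 of 15 genes that passed the filter were called, beside 3.61% of all genes, with a median of 1.52. Ogdh, the first subunit of the 2-oxoglutarate dehydrogenase complex, was at 690.1, 448, 431 and 260.1 CPM against 150.4, 172 and 199 CPM.

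Some genes of each respiratory complex met the rule. Of 76 nuclear-encoded genes of the respiratory chain and ATP synthase, 67 passed the filter and had a median log2 fold change of 1.11. Of these, 53 were higher without overlap, beside 5.52% of all genes, and 36 were also at least 2-fold higher, beside 3.61%. By complex, the median was 0.97 over 35 genes of complex I, 1.52 over 3 of complex II, 1.403 over 8 of complex III, 1.25 over 6 of complex IV and 0.93 over 14 of ATP synthase. Atp5b, the catalytic beta subunit of ATP synthase, was at 786, 621, 537 and 329 CPM against 179, 192 and 221 CPM. Cycs, the electron carrier cytochrome c, had a log2 fold change of 2.203. The breakdown of branched-chain amino acids, another mitochondrial pathway of brown fat, had a median of 0.86, with 4 of 13 genes called, beside 3.61% of all genes. The called genes included Aldh6a1, at 162, 134, 168 and 71.0 CPM against 38.0, 43.3 and 49.7 CPM.

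**Figure D2:**
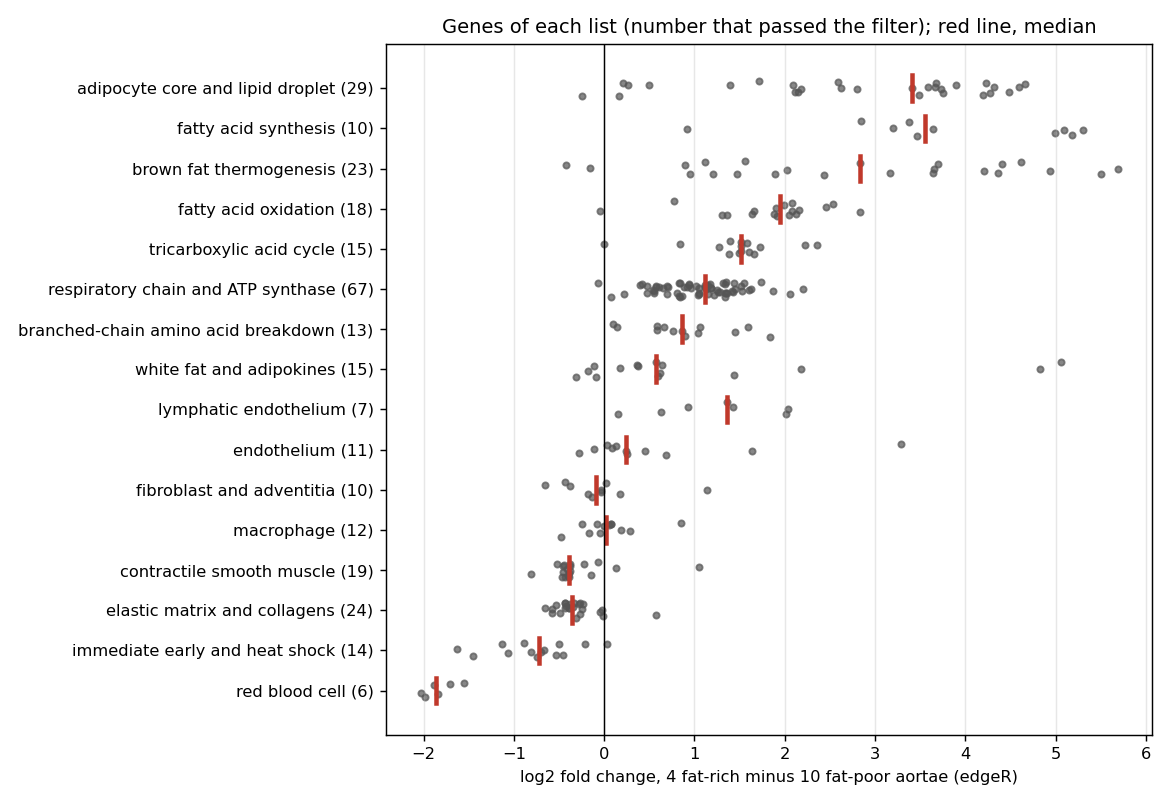
Log2 fold change of the 4 fat-rich over the 10 fat-poor aortae (edgeR) for each gene that passed the filter, by gene list, with the number of genes in brackets; each point is a gene and the red line is the median. Fatty acid synthesis (median 3.55) and the adipocyte lists lie furthest right, respiratory chain genes gather near 1.11, and contractile smooth muscle genes lie at a median of −0.39.

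Mitochondrial pseudogenes were among the higher genes. These nuclear copies of mitochondrial genes share their sequence with the mitochondrial genome, so reads from either source cannot be told apart. On chromosome 1, between 24611535 and 24616197 (GRCm38), 7 pseudogenes were called higher, with log2 fold changes from 1.59 to 1.82, and they summed to 74193, 56396, 62409 and 34343 CPM against 14376, 16228 and 22011 CPM. On chromosome 2, between 22587291 and 22590533, 3 more were called, at 1.57 to 1.65. Pseudogenes of all kinds took 7.91% to 11.0% of the counts in the fat-rich and 3.74% to 6.18% in the fat-poor aortae. The mitochondrial genome itself was not analysed here.

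Contractile smooth muscle and matrix genes had medians below 0, and none of them met the rule. Of 24 contractile smooth muscle genes, 19 passed the filter, none met the 2-fold rule in either direction against a background of 3.61% higher and 0.0486% lower, and 17 of the 19 had a log2 fold change below 0. Without the 2-fold condition, 3 of them were lower in each fat-rich aorta than in any fat-poor aorta, beside 1.62% of all genes. Within SFD, 10 of 20 were lower without overlap, beside 11.8% of all genes, and 1 was called higher. Mylk, the myosin light chain kinase that starts contraction, was at 969, 1204, 1013 and 1294 CPM against 1322, 1444.6 and 1596 CPM (log2 fold change −0.39 ± 0.10). Mrvi1, a target of cyclic GMP-dependent kinase, was at 204, 253, 216 and 268 CPM against 289.9, 319 and 353 CPM, and Npnt, a matrix protein, was at 401, 478, 364 and 580.2 CPM against 589, 630.2 and 716 CPM. Mouse KO-SFD-1452, with the least fat RNA of the 4, lay closest to the fat-poor aortae for these 3 genes. The summed level of the list was 15955, 20058, 17433 and 24994 CPM against 23740, 25828 and 28600.1 CPM, and it overlapped only through KO-SFD-1452. Matrix genes, 24 of which passed, had a median of −0.36 with none called. They summed to 9864, 10783, 9285 and 15454 CPM against 12410, 13665 and 16072 CPM, and overlapped only through KO-SFD-1452. Since CPM are shares of a library, fewer smooth muscle transcripts and dilution of the same number by other RNA cannot be told apart.

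**Figure D3:**
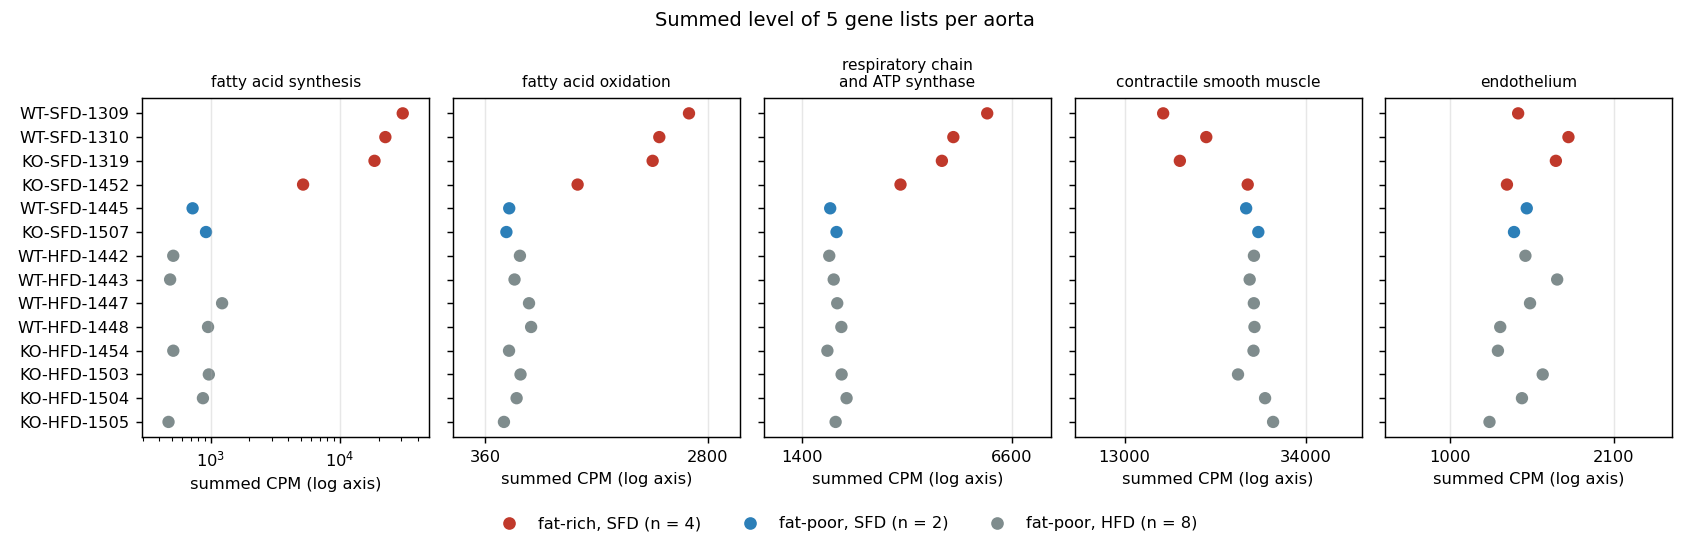
Summed CPM (log axis) of 5 gene lists in each of the 14 aortae; each point is 1 library. Fatty acid synthesis, fatty acid oxidation and the respiratory chain are higher in all 4 fat-rich aortae, contractile smooth muscle is lowest in WT-SFD-1309, WT-SFD-1310 and KO-SFD-1319, and the endothelial sum overlaps between the classes.

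The 7 genes that were lower without overlap and by at least 2-fold were Fosb, Gdf6, Treml1, Gm14488, Gm16217, Gm22320 and RP24.326K11.2. Fosb, an immediate early transcription factor, was at 3.57, 9.96, 12.5 and 15.0 CPM against 15.5, 28.7 and 62.9 CPM. The immediate early and heat shock list had a median log2 fold change of −0.72. Only Fosb of its 14 genes was called, beside 0.0486% of all genes called lower. The highest fat-rich value of Fosb, in KO-SFD-1452, lay just below its lowest fat-poor value. Among genes with smaller differences that did not overlap, Fmo2, a flavin-containing monooxygenase, was at 282, 334, 395 and 414 CPM against 514, 573 and 765 CPM, and Twist1, a transcription factor of mesenchymal cells, had a log2 fold change of −0.92.

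Markers of other cells were examined beside these results, and their part in them was not tested. The endothelial list differed little, with a median log2 fold change of 0.25 over 11 genes. Pecam1 had −0.11 and Vwf 0.09, yet Kdr, the main receptor for vascular endothelial growth factor, was at 61.1, 39.2, 38.1 and 13.1 CPM against 1.46, 3.58 and 6.83 CPM. Kdr was the only endothelial gene of the 11 called, beside 3.61% of all genes. Of 7 lymphatic genes, 1 was called higher over all 14 aortae, beside 3.61% of all genes, and 5 within SFD, beside 6.75%. All 7 had a log2 fold change above 0, with a median of 1.36. Their sums were 192, 115, 115 and 83.7 CPM against 39.5, 53.9 and 74.6 CPM. The gene called over all 14 aortae was Flt4, a receptor for vascular endothelial growth factor C. It was at 37.0, 23.6, 25.9 and 13.4 CPM against 5.24, 8.83 and 12.96 CPM. The fibroblast list had a median of −0.09 and the macrophage list of 0.02. Fibroblast genes summed to 707, 621, 665 and 1030 CPM against 815, 877 and 981 CPM. By this sum 3 fat-rich aortae lay below every fat-poor aorta and KO-SFD-1452 lay above them all. Red blood cell transcripts summed to 29.0, 13.8, 22.9 and 367 CPM against 171, 365 and 837 CPM over 6 genes, so 3 fat-rich aortae lay below every fat-poor aorta and KO-SFD-1452 did not.

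In 3 of the fat-rich aortae, transcripts of other tissues were present, of a different kind in each mouse. Beyond 5 CPM and 4-fold above every other library, a rule chosen after the values were seen, there were 10 genes in WT-SFD-1309, 16 in WT-SFD-1310, 31 in KO-SFD-1319 and 0 in KO-SFD-1452, against 1 gene in WT-SFD-1445 and 0 in each of the other 9 fat-poor aortae. The sympathetic neuron and adrenal list, 9 genes with a count, summed to 115 CPM in WT-SFD-1309 against 15.0, 19.3 and 12.8 CPM in WT-SFD-1310, KO-SFD-1319 and KO-SFD-1452 and 8.08 to 37.3 CPM in the fat-poor aortae. Its Dbh and Th, enzymes of noradrenaline synthesis, were at 35.4 and 15.9 CPM there, whereas Cyp11b1, the adrenal cortical enzyme, was at 0. The cardiac list of 8 genes summed to 614 CPM in WT-SFD-1310, against 119, 98.4 and 200.5 CPM in WT-SFD-1309, KO-SFD-1319 and KO-SFD-1452 and 124 to 194 CPM in the fat-poor aortae. Its Myh6, the atrial and adult mouse ventricular myosin heavy chain, was at 248 CPM and its Actc1, cardiac actin, at 49.7 CPM in WT-SFD-1310. Actc1 was also among the 520 genes higher in all 4 fat-rich aortae, with 2.06, 5.56 and 8.77 CPM in the other 3.

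In KO-SFD-1319 the lymphocyte list of 9 genes with a count summed to 1329 CPM, against 18.5, 23.6 and 30.2 CPM in the other 3 fat-rich aortae and 11.8 to 53.4 CPM in the fat-poor aortae. Nearly all of it was Ighm, the heavy chain of immunoglobulin M, at 1294 CPM, and 24 of the 31 genes particular to this library by the rule above were immunoglobulin genes. The B cell receptor component Cd79a, at 5.29 CPM, lay within the range of the fat-poor aortae. The mesothelial list of 7 genes summed to 53.7 CPM in this mouse and to 1.02 to 7.50 CPM in the fat-poor aortae, with Upk3b at 21.4 CPM and Krt8 at 0. Of the sympathetic neuron and adrenal genes, 4 passed the filter over all 14 aortae and 0 of them were higher without overlap (median log2 fold change 1.805), while within SFD, with only 2 fat-poor aortae, 5 of 7 were called (median 3.59), beside 6.75% of all genes.

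**Figure D4:**
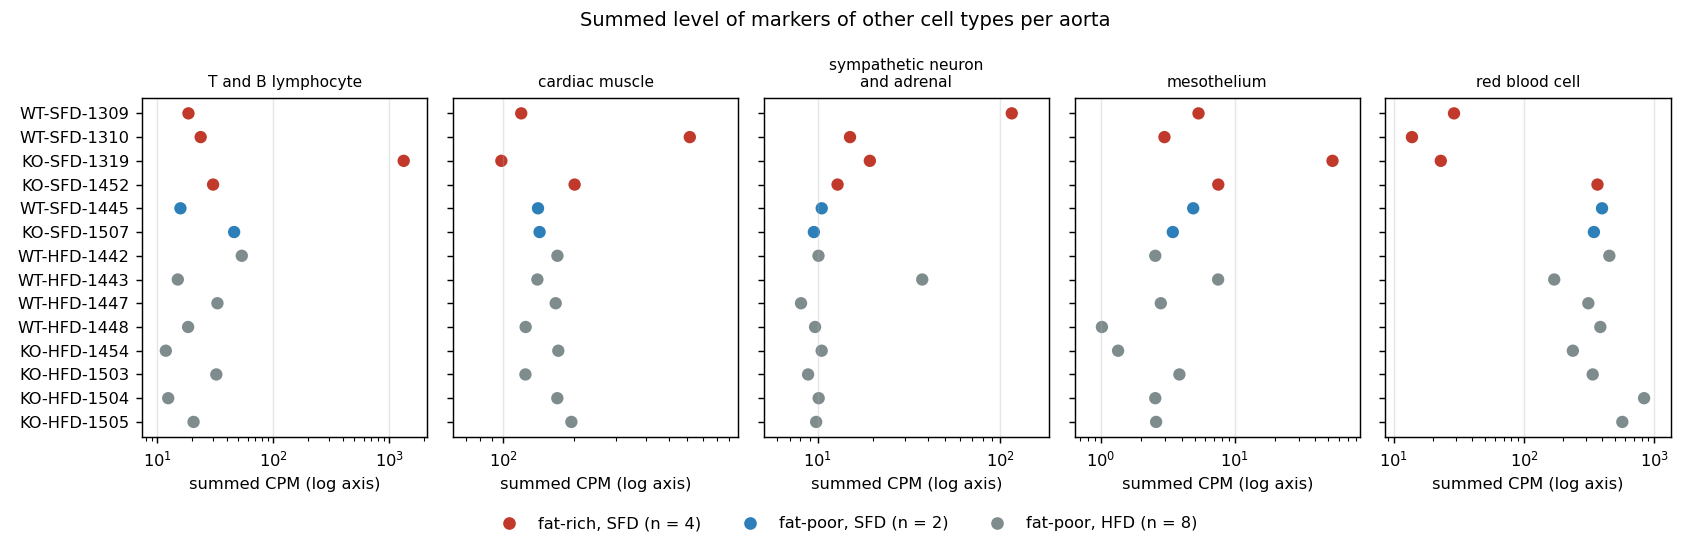
Summed CPM (log axis) of 5 marker lists of other cells in each of the 14 aortae; each point is 1 library. Lymphocyte and mesothelial sums are highest in KO-SFD-1319, the cardiac sum in WT-SFD-1310 and the sympathetic neuron and adrenal sum in WT-SFD-1309, and red blood cell sums are lowest in these 3 aortae.

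Genotype could be compared inside the fat-rich class, 2 KO against 2 WT aortae, with a spread estimated over all 14 libraries. Egfr (chr11:16752203-16918158, plus strand, GRCm38) was checked before other genes. It was at 46.9 and 39.5 CPM in the fat-rich WT aortae and at 27.1 and 35.5 CPM in the fat-rich KO aortae. Over all aortae it ranged from 39.5 to 64.9 CPM in 7 WT and from 27.1 to 40.6 CPM in 7 KO aortae, so KO aortae were lower with a small overlap. Among the fat-rich aortae the log2 fold change of KO over WT was −0.47 ± 0.20 with an edgeR adjusted p of 0.418. Between the fat classes, Egfr values overlapped, with a log2 fold change of −0.29 ± 0.21.

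In the fat-rich class 13 of 16523 genes (0.0787%) were higher and 4 (0.0242%) lower in KO at a Benjamini-Hochberg adjusted p under 0.05 by edgeR's quasi-likelihood test. When only the 4 libraries compared were fitted, 6 genes were higher and 0 lower, so none of the 4 lower calls was kept. Adcy1 (chr11:7063489-7178506, plus strand, GRCm38), an adenylyl cyclase, was at 4.67 and 4.62 CPM in WT and at 199.97 and 227 CPM in KO, a log2 fold change of 5.51 ± 0.24 (edgeR adjusted p = 6.64e-09). The gene also separated the genotypes over all aortae, with 3.02 to 8.34 CPM in 7 WT and 199.97 to 386 CPM in 7 KO aortae. Of the 13 higher genes, 10 were gene models on chromosome 4, several of them pseudogenes, whose reads may be shared between copies, among them Gm17167 at 8.51 and 9.03 CPM in WT and 105 and 76.6 CPM in KO (edgeR adjusted p = 0.000167). The lower genes with the smallest p were the pseudogenes Pisd.ps1, at 69.0 and 67.9 CPM in WT and 24.7 and 14.5 CPM in KO (log2 fold change −1.81, edgeR adjusted p = 0.000609), and Pisd.ps2 (−1.75, edgeR adjusted p = 0.000694). F2r, the thrombin receptor, was at 28.3 and 27.6 CPM in WT and 55.6 and 88.4 CPM in KO (edgeR adjusted p = 0.0118). Scd3, a paralogue of Scd1, fell from 265 and 149.9 CPM in WT to 51.4 and 26.0 CPM in KO, a log2 fold change of −2.43 ± 0.39 (edgeR adjusted p = 0.0181), and Agpat3, an acyltransferase of phospholipid synthesis, fell from 197 and 149 to 103 and 83.1 CPM (edgeR adjusted p = 0.0298). With the fat-poor SFD aortae added as a second stratum, neither Scd3 (log2 fold change −1.32, edgeR adjusted p = 0.773) nor Agpat3 (−0.38, edgeR adjusted p = 0.773) passed. Both genes were also among the 520 higher in the fat-rich aortae, with log2 fold changes of 4.79 and 1.04. In that analysis 12 genes (0.0726%) were higher and 2 (0.0121%), Pisd.ps1 and Pisd.ps2, lower.

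Genotype and amount of fat RNA were not balanced in these 4 aortae. The median log2 fold change of KO over WT was −1.22 over fatty acid synthesis genes, −0.97 over core adipocyte genes and −0.39 over respiratory chain genes, against −0.03 over all genes. No gene of these 3 lists passed the edgeR test. At an unadjusted edgeR p under 0.05, 8 of 10, 21 of 29 and 27 of 67 were lower in KO, beside 1056 lower (6.39%) and 686 higher (4.15%) of all genes. The 21 include the markers Adipoq, Plin1 and Fabp4, by which the 4 aortae were chosen, so these counts are a description. The 2 WT aortae had the highest marker means and KO-SFD-1452 the lowest, so that a difference between genotypes and a difference in fat content cannot be told apart for the genes of these lists, nor for Scd3 and Agpat3. Lists of other cells differed in both directions, with no gene past the adjusted test. At an unadjusted edgeR p under 0.05, 6 of 6 red blood cell, 7 of 9 lymphocyte and 4 of 6 mesothelial genes were higher in KO. Their list medians were 3.22, 2.24 and 3.42. By the same measure 4 of 8 cardiac and 4 of 7 sympathetic neuron and adrenal genes were lower in KO. In each of these lists 1 library held most of the summed CPM. Red blood cell genes summed to 22.9 and 367 CPM in KO-SFD-1319 and KO-SFD-1452, against 29.0 and 13.8 CPM in WT. Lymphocyte genes summed to 1329 and 30.2 against 18.5 and 23.6 CPM, and mesothelial genes to 53.7 and 7.52 against 5.35 and 2.98 CPM. The cardiac sum was highest in WT-SFD-1310 (614 CPM) and the sympathetic sum in WT-SFD-1309 (115 CPM). Without KO-SFD-1319 the number of genes that differed by genotype was 487 (133 higher, 354 lower) and without KO-SFD-1452 it was 37 (35 higher, 2 lower), in place of 17.

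Diet was confounded with fat content in these aortae. When all 14 were compared, 47 of 14796 genes (0.318%) were higher and 514 (3.47%) lower on HFD by edgeR at an adjusted p under 0.05. The smallest adjusted p was 0.0208, and the total of 561 became 0 when any one of WT-SFD-1309, WT-SFD-1310, KO-SFD-1319 or 5 of the HFD aortae was left out, and 1856 without WT-SFD-1445. With library totals in place of TMM, 5 genes were higher and 589 lower. In a contrast among the 10 fat-poor aortae, within the fit of all 14, 0 of 16523 genes passed in either direction, and 0 of 15861 when only these 10 were fitted. In the former the smallest adjusted p was 0.151, 445 genes higher (2.69%) and 307 lower (1.86%) had an unadjusted p under 0.05, and DESeq2 called 3 genes. The 10 fat-poor aortae hold only 2 on SFD, and the median SE of the log2 fold change was 0.239 in place of 0.161. Both comparisons share the same 8 HFD and 2 SFD libraries, and the fat classes were set by these same values.

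Many genes of the fat and mitochondrial lists were among the lower ones in the comparison of all 14. All 5 markers, 24 of 29 core adipocyte genes, 9 of 10 fatty acid synthesis genes, 13 of 18 fatty acid oxidation genes, 12 of 15 tricarboxylic acid cycle genes and 32 of 67 respiratory chain genes were lower on HFD, beside 3.47% of all genes. As given above, no gene was called when any one of WT-SFD-1309, WT-SFD-1310, KO-SFD-1319 or certain HFD aortae was left out. The median log2 fold change of HFD over SFD was −2.92 for fatty acid synthesis, −1.45 for fatty acid oxidation and −0.79 for the respiratory chain. Among the 10 fat-poor aortae the same medians were 0.06, 0.17 and 0.07, with no gene past the test. The brown fat list, which includes the markers Ucp1 and Cidea, had a median of −2.10 in all 14 and of 0.41 among the fat-poor aortae. The 2 SFD aortae among the latter were classed by low levels of the markers, so the 0.41 is a description only. Fasn had −4.43 ± 0.74 in all 14 and −0.16 ± 0.46 among the fat-poor aortae. Levels of the markers set which SFD aortae were removed, so their values, and those of genes that go with them, are a description: Adipoq had −3.55 ± 0.68 in all 14 and 0.43 ± 0.53 among the fat-poor aortae, and Ucp1 −3.57 ± 0.91 and 3.36 ± 1.04. Contractile smooth muscle genes had medians of 0.27 and 0.08, and none was called in either.

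Other genes named for the comparison of all 14 included Prdm16, which had a log2 fold change of 0.46 ± 0.09 (edgeR adjusted p = 0.023) in all 14 and 0.40 ± 0.14 among the fat-poor aortae. Agmo, an enzyme that cleaves ether lipids, had −1.58 and −0.75, and Cyp2e1 had −4.82 and −1.39 ± 0.50. None of these passed the test in the fat-poor aortae.

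**Figure D5:**
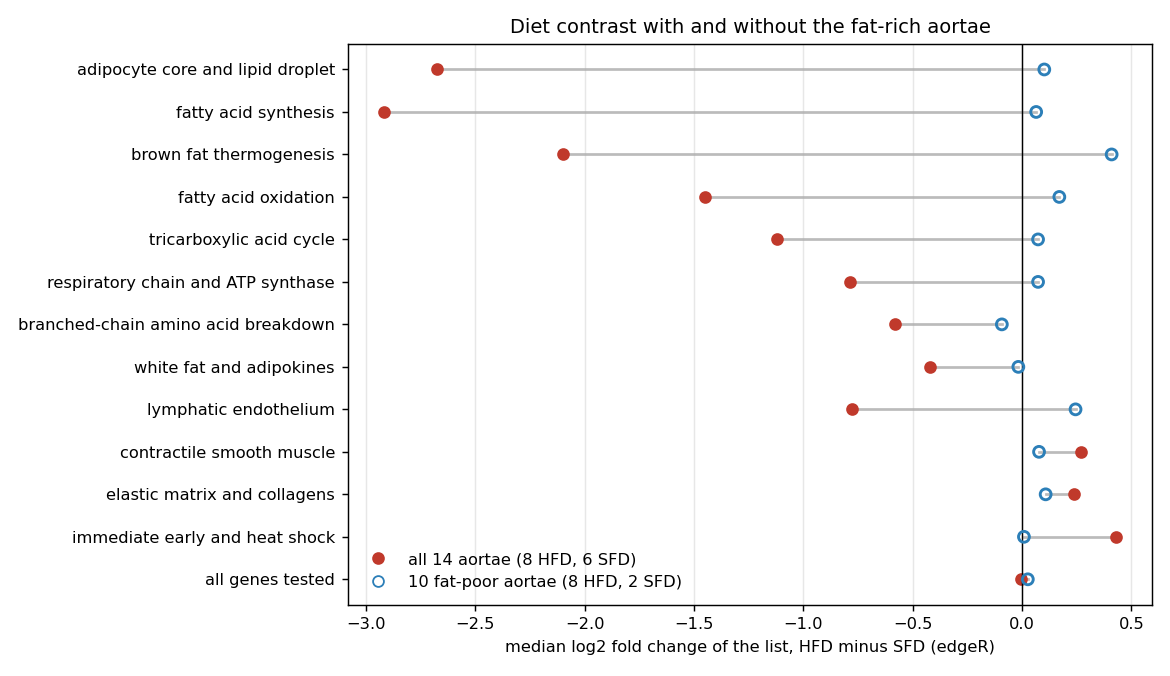
Median log2 fold change of HFD over SFD (edgeR) for each gene list; filled red points use all 14 aortae and open blue points the 10 fat-poor aortae. With all 14 the fat, fatty acid and mitochondrial lists lie below 0 (fatty acid synthesis at −2.92); in the fat-poor aortae fatty acid synthesis lies at 0.06 and brown fat at 0.41.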

How the data were processed

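RNA-seq libraries were made from total RNA of aorta and kidney after depletion of ribosomal RNA, and paired-end reads were processed by the authors with cutadapt, TopHat and featureCounts on mm10, as named in the submitters' processing notes. The deposited values are raw counts per gene, not normalised, for 41128 genes. Of these, 26846 had a count in an aorta, and 2693 of 22026 protein-coding genes (12.2%), on chromosomes 9, X, Y and MT and the distal part of chromosome 8, were at 0 in every library and are not analysed here. Strandedness of the counting is not given in the sources used here. Each group label came from GEO's sample descriptions, and p-values measure the spread between single mice.

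Counts were scaled by TMM and filtered by filterByExpr in edgeR 4.0.16 (R 4.3.3). Fat-rich and fat-poor aortae were compared by fold change and overlap only. Genotype and diet were tested with glmQLFit and glmQLFTest and Benjamini-Hochberg adjustment over all genes tested, at 0.05, with genotype, diet and fat class forming the groups (for all 14 aortae and diet, genotype and diet only). SE is the log2 fold change divided by the square root of F. DESeq2 1.42.0 was an alternative. The fits were tested on simulated data with 200 changed genes. The fat classes, the 26 gene lists (427 symbols, 426 in the files) and the comparisons were chosen with earlier results of these data known.

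The genes eligible to be named, of which the text gives a part, were Egfr and the markers, up to 4 per list and direction with the highest mean CPM among those separated between classes, the 12 per direction with the largest fold at 5 CPM or more, up to 6 per direction with the smallest p in each tested comparison, and the 10 with the most counts. Other genes were named after their values were seen: Adrb3, Ptrf, Srebf1, Lep, Pecam1, Vwf, Cycs, Myh11, F2r, those of the 7 lower genes outside the rule, and those given for single libraries. Promoters came from a RefSeq table (GRCm38.p6), which held 336 of the 520 higher genes. Counts of the kidneys served only for the markers. A few items of the lists are not reported here.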

Additional observations from a re-analysis of the deposited data

Results flagged for a closer look

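Of 74 groups of values examined for a library far from the rest of its class, 8 had such a gap, and chance gives about 1 in 20. In the fat-rich aortae the highest library stood apart for summed CPM of lymphocyte markers (1329 in KO-SFD-1319, next 30.2), mesothelial markers (53.7 in KO-SFD-1319, next 7.52), sympathetic neuron and adrenal markers (115 in WT-SFD-1309, next 19.3) and Schwann cell markers (210.5 in WT-SFD-1309, next 115). KO-SFD-1452 stood apart for red blood cell markers (367, next 29.0) and for a list of markers of other organs (16.3, next 10.2), in which the cartilage proteoglycan Acan had the most counts. In the fat-poor aortae, KO-HFD-1503 stood apart for macrophage markers (406, next 293) and WT-HFD-1443 for sympathetic neuron and adrenal markers (37.3, next 10.5).

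The kidneys, which enter no comparison here, also held Ucp1, the brown fat uncoupling protein, with a median of 0.832 and a highest value of 32.03 CPM over 16 libraries; the next values were 28.4, 22.0 and 16.2 CPM.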

How the results depend on the processing

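The 527 genes that separated fat-rich from fat-poor aortae were 1028 without the 2-fold condition, and the 1359 within SFD were 4453. Genes that differed by genotype in the fat-rich aortae (17, of them 13 higher) were 28 with library totals in place of TMM (25 higher), 613 without the filter on low counts (274 higher, 339 lower), 94 with DESeq2 (39 higher, 55 lower), 6 at an adjusted p under 0.001, 6 with only the 4 libraries compared (6 higher, 0 lower) and 26 with the marker mean as covariate. With the 2 fat-poor SFD aortae as a second stratum the 14 were 24, 213, 34, 7 and 8 under the first 5 of these, and the 8 were all higher. For diet in the 10 fat-poor aortae, 0 became 85 without the filter and 3 with DESeq2. For diet in all 14, 561 (47 higher, 514 lower) became 1007 with DESeq2 (195 higher, 812 lower), 594 with library totals (5 higher, 589 lower), 0 at an adjusted p under 0.001 and 3 with the marker mean as covariate. With that covariate Ucp1 went from −3.57 to 1.83, but it is 1 of the 5 genes of the covariate, so nothing is read from it.

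Leaving out each aorta gave 487 (WT-SFD-1309) to 938 (KO-SFD-1452) genes between the classes and 1375 (WT-SFD-1309) to 2524 (KO-SFD-1507) within SFD. For genotype the range was 10 (WT-SFD-1309) to 487 (KO-SFD-1319) in the fat-rich aortae, with 37 without KO-SFD-1452, and 12 to 37 (KO-SFD-1319) with the second stratum. For diet it was 0 to 0 in the fat-poor aortae. In all 14 it was 0 to 1856 (WT-SFD-1445): 0 without WT-SFD-1309, WT-SFD-1310, KO-SFD-1319, WT-HFD-1442, WT-HFD-1443, WT-HFD-1448, KO-HFD-1504 or KO-HFD-1505, 1 without KO-HFD-1454, 164 without KO-HFD-1503, 173 without WT-HFD-1447, 412 without KO-SFD-1452 and 892 without KO-SFD-1507. Where 1 library was left in an arm, it was assumed to vary like the others. The cause of these changes was not tested.

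Chosen after seeing the data, leaving out the 3 aortae with uneven U1 counts gave 2461 genes within SFD, and only protein-coding genes gave 5 and 4 genes for genotype. Of 1349 alternative values of named genes, 1139 stayed the same, 202 lost the call, 6 moved, 1 gained the call and 1, Ucp1, reversed. For tested comparisons, the same means an unchanged direction and side of the threshold. Between fat classes, where nothing was tested, it means a shift in log2 fold change below the SD of the 4 fat-rich log2 values, and moved means a larger shift. The median gene moved by −0.07 on the log2 scale with library totals. No paired analysis was possible because the labels give no replicate numbers shared between groups. Libraries held 6403699 to 13052870 counts, so that 1 CPM stood for few reads.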

Other observations

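The circadian clock list differed among the aortae without following the fat classes over all 14. Arntl, a positive component of the clock, was at 15.4, 7.19, 1.22 and 22.8 CPM in the fat-rich aortae (WT-SFD-1309 and WT-SFD-1310, KO-SFD-1319 and KO-SFD-1452) and at 0.724, 2.57 and 33.2 CPM (lowest, median, highest) in the fat-poor aortae. Dbp, a clock output gene that peaks in the opposite phase, was at 41.9, 72.1, 131 and 30.1 CPM against 7.73, 129 and 180.1 CPM. Within both classes the library with the highest Arntl therefore had the lowest Dbp. The median log2 fold change of the list was −0.27 for fat-rich over fat-poor aortae and −0.84 within SFD.

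Kidneys were sequenced from 3 of the same mice. The marker mean that was high in the aortae of WT-SFD-1309 and KO-SFD-1319 was low in their kidneys, at 1.18 and 1.19, near the bottom of 16 kidneys with a range of 0.897 to 5.67 and a median of 2.40. KO-HFD-1504, whose aorta was fat-poor, had 3.58 in its kidney. Ucp1 was at 0.0548, 0.0511 and 11.5 CPM in these 3 kidneys.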
